A study of Arabidopsis thaliana with 9 samples.

Results

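GIS-type C2H2 zinc finger genes encode a small group of transcription factors that promote the formation of trichomes, the hairs of the plant epidermis. The 6 members examined were GIS (AT3G58070), GIS2 (AT5G06650), GIS3 (AT1G68360, without a symbol in the annotation used), ZFP8 (AT2G41940), ZFP5 (AT1G10480) and ZFP6 (AT1G67030), out of 27444 protein-coding genes on the 5 nuclear chromosomes of Arabidopsis thaliana. Peaks of LEAFY (LFY) were assigned to a member when the summit lay in the gene or up to 5 kb upstream of its start. Only GIS3 had any, with 2 of the 1177 nuclear summits. The group was chosen by the presence and height of these peaks (fold enrichment and read counts), so whether a member had a peak, and how high it was, is given below as a description without a test.

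LFY is the plant transcription factor that specifies floral fate, and it was mapped by chromatin immunoprecipitation and sequencing (ChIP-seq) with anti-LFY antibodies. Callus of the accession L.er carrying 35S:LFY-GR was used in all 3 groups of 3 samples. These were ChIP after dexamethasone (dex, 5 µM), ChIP after mock treatment, and input chromatin without antibody, for which no treatment is listed. Roots of seedlings aged 3 weeks spent 5 days on callus inducing medium, and the sample labels place the treatment in the last 1 h, whereas the series description gives a longer one. In 35S:LFY-GR a viral promoter active in most cells drives LFY fused to the hormone-binding part of the glucocorticoid receptor, and the fusion enters the nucleus when dex is added, so binding is read at a level and in cells set by the transgene. Per the study's methods, each ChIP replicate pooled several reactions. The 3 dex libraries were pooled and set against the 3 pooled mock libraries before peaks were called, and the inputs did not enter. No value below therefore has an error between replicates, and the intervals cover counting error in the pooled reads alone. The data hold no expression values, so neither the tissue label nor the activity of any gene could be checked.

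In the trichome pathway of Arabidopsis, these C2H2 proteins act between the hormones gibberellin and cytokinin and the activator complex that starts a trichome, in which an R2R3 MYB (GL1), a bHLH protein (GL3 or EGL3) and the WD40 protein TTG1 work together. GIS acts in the gibberellin response of the inflorescence, GIS2 and ZFP8 respond to gibberellin and cytokinin, and GIS3, ZFP5 and ZFP6 are placed upstream of several of the others. Trichomes thin out on the upper parts of the flowering stem, the stage at which LFY is normally active. All 6 genes are short, between 782 and 1660 bp, and consist of 1 exon.

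GIS3 lay in a field of LFY binding. The gene (chromosome 1, 25621533 to 25622593, minus strand, TAIR10) had 7 summits within 10 kb of its ends, spread over 10.4 kb. They are called S1 to S7 in the order of the chromosome, which runs from behind the gene to far upstream of it. S1, S2 and S3 lay 1904, 1311 and 823 bp past the end of the gene. S4 lay 8 bp upstream of the gene start. S5, S6 and S7 lay 4194, 5336 and 7478 bp upstream. Only S4 and S5 fall in the gene or its 5 kb upstream, and the rule stops between S5 and S6.

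The 7 summits all lay in the gene-free stretches on either side of GIS3. Upstream, 9095 bp without an annotated gene separated its start from the end of ARG1 (AT1G68370), a DnaJ-type protein known for its part in gravitropism. This stretch held 4 summits. Of the 31615 gene-free intervals on the nuclear chromosomes, 8 held at least as many, and 204 were at least as long, of which 3 held at least as many. Each of these counts includes the stretch itself. Downstream, 3690 bp separated GIS3 from the long non-coding RNA gene AT1G08983 and held 3 summits, a number reached in 24 of all intervals, this one included.

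Other genes border the same summits. ARG1 is on the strand of GIS3 and turns its 3′ end to the region, so S7 lay 1618 bp past the end of ARG1. AT1G08983 turns its start to S1, S2 and S3, which lay 1787, 2380 and 2868 bp upstream of it. The next summits beyond the 7 lay 15.9 and 23.3 kb upstream of GIS3, on the far side of ARG1, and had folds of 4.58 and 7.27.

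**Figure D1:**
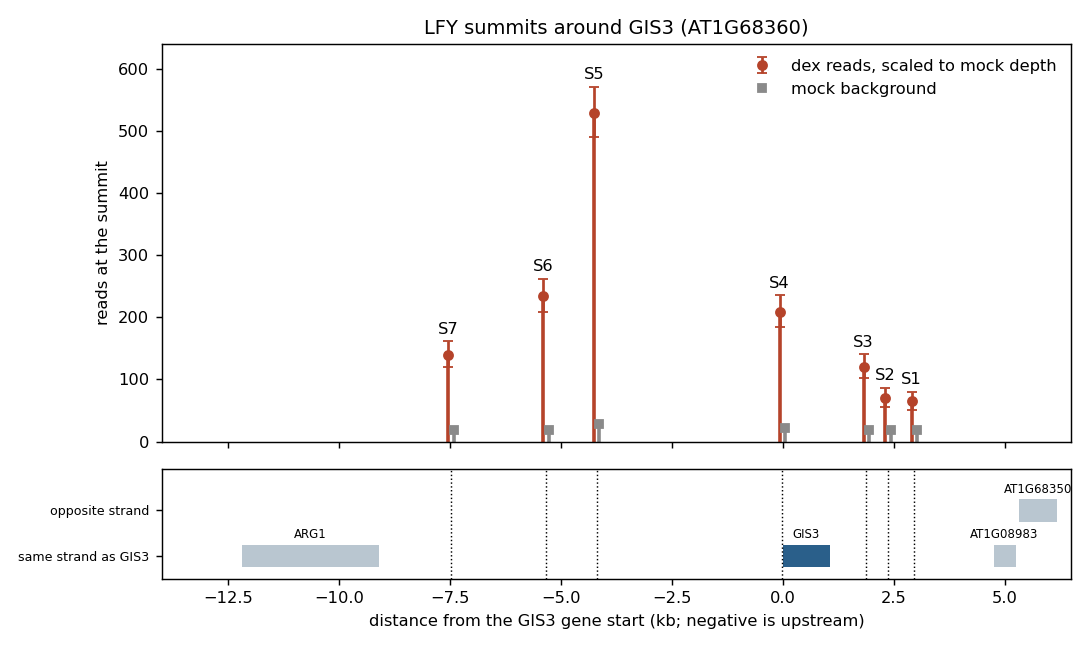
Reads at the 7 LFY summits around GIS3, by distance from the gene start in kb (upper panel), with annotated genes by strand (lower panel). Red circles are pooled dex reads scaled to the mock depth with 95% exact Poisson intervals, and grey squares are the mock background. S5, at 4.19 kb upstream, stands above all others, and every summit is far above its background of 18 to 28 reads.

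S5 was among the highest peaks of the whole list. It spanned positions 25626452 to 25627193, with the summit at 25626787, outside any annotated gene. The fold enrichment deposited by the authors, which is the dex pileup plus 1 over the mock background plus 1, was 18.3, ranking 3 of 1177. Reads behind each summit were recovered from the fold and the p-value. S5 rested on 672 dex reads (622 to 725, 95% exact Poisson interval) against 28 mock reads. Scaled to equal depth, the ratio was 18.9 (13.0 to 28.7, 95% exact binomial interval). The peaks ranked above it lay near AR781 (AT2G26530), with a ratio of 19.4 (12.8 to 30.8), and near WRKY48 (AT5G49520), with a ratio of 19.1 (13.1 to 29.0). These 3 intervals overlapped nearly in full, so the order of the ratios was not resolved at this depth. The peaks ranked 4 and 5 also overlapped the interval of S5. They lay near AT5G12010, with a ratio of 16.8 (15.2 to 18.5, exact Poisson with the background taken as fixed), and near GA2OX4 (AT1G47990), with a ratio of 16.1 (10.7 to 25.3).

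The sequence at S5 is shown because the summit, with 672 dex reads, carries the most LFY signal at any of these genes. CCANTGG is the palindromic core of the LFY consensus, and it was searched exactly (it reads alike on both strands) and with 1 mismatch. TTGAC, the core of the W-box bound by WRKY factors, was searched on both strands. Capitals mark a LFY core with 1 mismatch, centred 15 bp to the left of the summit, and TTGAC, centred on the summit itself, in the 201 bases from chr1:25626687-25626887 (TAIR10.1, RefSeq, plus strand).
S5: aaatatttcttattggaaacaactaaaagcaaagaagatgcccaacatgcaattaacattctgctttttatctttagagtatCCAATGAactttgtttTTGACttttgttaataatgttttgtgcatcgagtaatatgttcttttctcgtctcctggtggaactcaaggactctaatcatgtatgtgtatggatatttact

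S6 and S4 were the next strongest summits at GIS3. S6 (25627449 to 25628246, summit 25627929) had a fold of 12.4, ranking 18, on 297 dex reads (264 to 333) over a mock background of 17.97. That background is the genome-wide floor of the peak caller, the lowest value it allows, so the number of mock reads at S6 is known only to be no higher. S4 (25622221 to 25622870, summit 25622601) had a fold of 9.12, ranking 59, with 265 dex reads (234 to 299) against 22 mock reads and a depth-scaled ratio of 9.49 (6.14 to 15.4). Its peak covered 373 bp of GIS3, of which 192 bp were coding. The intervals of the dex reads at S6 and S4 overlapped, and both lay below that of S5.

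The remaining summits were lower. S7 (25629802 to 25630311) reached a fold of 7.02 with 177 dex reads against 19 mock reads, a ratio of 7.34 (4.56 to 12.5). S3 (25620447 to 25621481) had a fold of 6.36 on 152 dex reads over the floor, within the widest peak of the locus at 1035 bp. S2 (25620091 to 25620355) had a fold of 3.75 with 89 dex reads, and S1 (25619536 to 25619685) a fold of 3.46 with 82 dex reads, both over the floor. S1 and S2 were below the median fold of all nuclear peaks, 4.04, and their intervals of dex reads, 65.2 to 102 and 71.5 to 110, overlapped. S1 also had the smallest −log10 q-value of the 7, at 14.2, where the list itself starts at 10. The other 5 summits were above the median, and S4, S5 and S6 were among the highest 10% by fold.

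**Figure D2:**
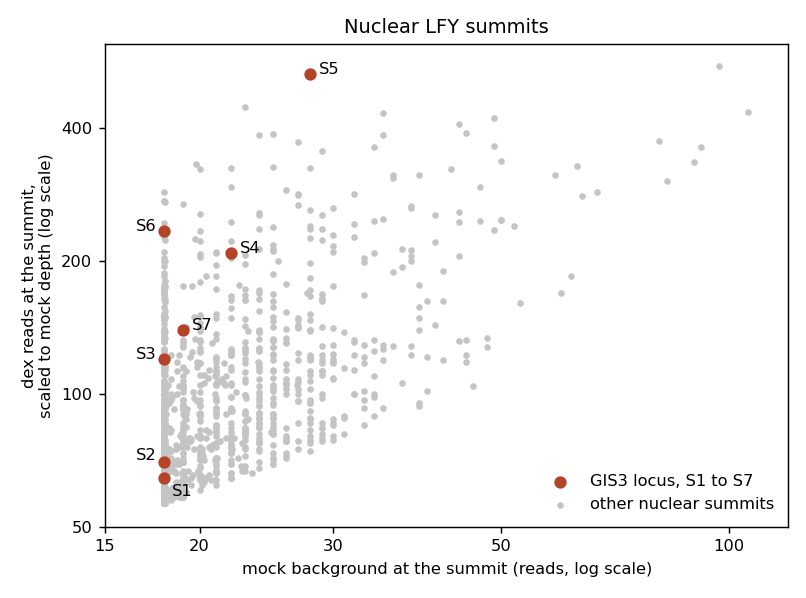
Dex reads at the summit, scaled to mock depth, against the mock background, both on log axes, for the 1177 nuclear summits. The 7 GIS3 summits (red) spread over much of the range of dex reads, all at mock backgrounds of 18 to 28 reads. S1 and S2 lie in the lower part of the cloud and S5, at 672 dex reads before scaling, near its top.

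The AP1 promoter offers a scale, since AP1, which encodes a MADS domain factor of flower meristem identity, is a known LFY target. Its promoter peak (25986237 to 25986864, 164 bp upstream of the gene start) rested on 460 dex reads against 92 mock reads, a depth-scaled ratio of 3.94 (3.14 to 4.98). S5 had more dex reads and fewer mock reads than this peak, S4 and S6 had fewer of both, and the intervals of the ratio at S4 and S5 lay above that of this peak. The ratio divides by the mock reads, and those of this peak were high beside the median background of all nuclear summits, 19.5. By dex reads this peak ranked 16, and S4 ranked 97. A second AP1 peak (25984802 to 25985201), with its summit 1334 bp past the gene start, had 127 dex reads over a background of 18.7 reads, a ratio of 5.35 (4.46 to 6.37, exact Poisson with the background taken as fixed). That interval overlapped the one at S4 and lay below the one at S5.

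Over all protein-coding genes, 6.13% had a summit in the gene or 5 kb upstream, and 1.02% had 2 or more there, as GIS3 did. Within 10 kb of either end, 0.0109% of genes, 3 of 27444, had 7 or more summits. GIS3 was one of them, and GBF1 (AT4G36730) and HB40 (AT4G36740), neighbours on chromosome 4, were the others. No gene had more. A summit in the gene or 5 kb upstream was present at 14.1% of the 156 protein-coding genes, GIS3 included, with at least as much gene-free sequence upstream as GIS3.

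The other 5 members, GIS, GIS2, ZFP5, ZFP6 and ZFP8, had no summit in the gene, in the 5 kb upstream or anywhere within 10 kb. The nearest summit lay 35.9 kb from GIS2, 47.6 kb from ZFP6, 48.0 kb from GIS, 78.4 kb from ZFP5 and 159 kb from ZFP8. A gene without a peak is below the q-value threshold of the list, and its reads are not known. The 1 of 6 members with a summit stands against the 6.13% of all genes, and since the group was picked with the GIS3 peak in view, nothing is read from that share. Gene-free sequence upstream was 9095 bp at GIS3, longer than at 99.4% of protein-coding genes or equal to it, against 5206 bp at ZFP5, 4579 bp at GIS, 2410 bp at ZFP8, 1676 bp at ZFP6 and 1490 bp at GIS2.

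**Figure D3:**
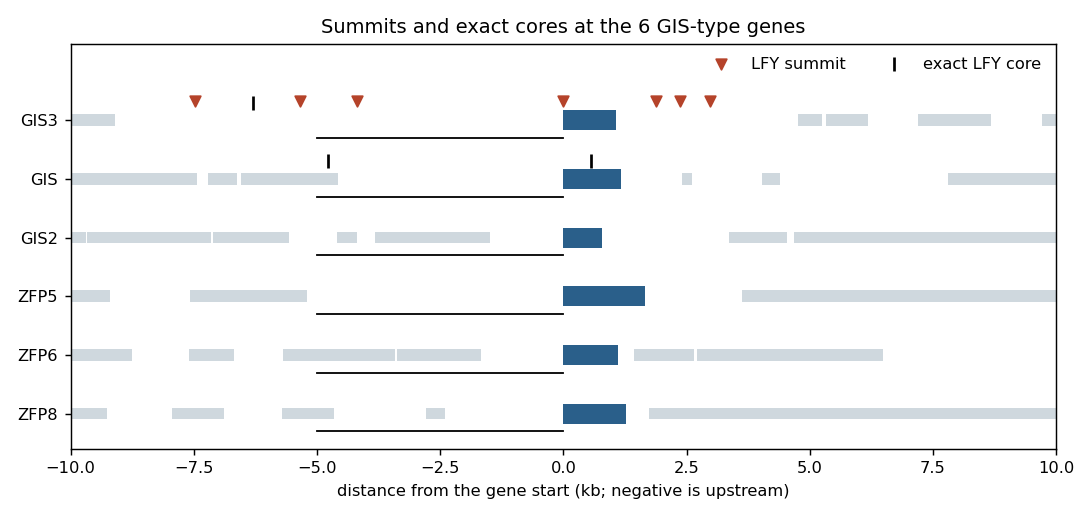
The 6 GIS-type genes aligned at the gene start, in kb, with the member in blue, other annotated genes in grey, LFY summits as triangles and exact LFY cores as ticks. The black line marks the 5 kb upstream. Cores were searched in the gene and 5 kb upstream, and for GIS3 in all the gene-free sequence around it. All 7 summits are at GIS3, and 2 of the 3 cores are at GIS.

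The exact core did not follow the peaks at these genes. In the gene and 5 kb upstream, GIS had 2 exact cores and the other 5 members, GIS3 included, had 0, while 67.9% of all protein-coding genes had at least 1 (median 1). Around GIS3, the 13.8 kb between AT1G08983 and ARG1 held 1 exact core, against 2.24 at the rate of chromosome 1. It lay 6306 bp upstream of the gene start, outside every peak and 970 bp from the nearest summit, S6.

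The exact cores of these genes are printed beside the core of the AP1 promoter, which lay 5 bp from the AP1 summit, so that their flanks can be compared (plus strand, TAIR10.1 from RefSeq, CCANTGG in capitals). The AP1 site is chr1:25986507-25986529, the GIS sites are chr3:21507159-21507181 in the coding sequence and chr3:21512511-21512533, 4783 bp upstream and inside the neighbouring gene AT3G58090, and the GIS3 site is chr1:25628888-25628910.
AP1 promoter: tgtacggaCCACTGGtccttccc
GIS coding sequence: ttaacggaCCATTGGtccacgac
GIS upstream: cagcatttCCACTGGtagtattg
GIS3 upstream: agattcaaCCAATGGggtttata

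The site in the coding sequence of GIS, 569 bp downstream of its start, shared with the AP1 site a longer palindrome of 13 bases, GGACCANTGGTCC. Only 4 matches to it were found on the nuclear chromosomes. The AP1 match had a summit within 150 bp, and the others, among them the one in GIS with its nearest summit 48.6 kb away, had none. The palindrome was defined from the AP1 and GIS sites, where the presence or absence of a summit was already known. This count is therefore a description. Of the 19611 exact 7-base cores on the nuclear chromosomes, 162, or 0.826%, had a summit within 150 bp. The reference is that of the accession Columbia, so whether L.er carries these letters was not tested.

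At the GIS3 summits, 0 of 7 had an exact core within 150 bp, and 0 of 7 anywhere in the peak. Among all nuclear summits the share was 13.1%, with 3.74% in windows 1000 bp to the left and 4.33% to the right. An exact match to the core is a stricter measure than the motif used in the paper. The paper reports the known LFY consensus under the summits of most of its peaks. With up to 1 mismatch, 4 of 7 had a core, S2, S3, S4 and S5, beside 73.6% of all summits, 50.3% of left windows and 51.0% of right windows. Around GIS3 itself, 3 of 7 left windows and 6 of 7 right windows had one, and an exact core was present in 0 of 7 left and 1 of 7 right windows. Some of these windows lay inside neighbouring GIS3 peaks, as that to the right of S1 did inside the peak of S3. They are therefore not unbound background. In S2, S3 and S4 the matches with 1 mismatch lay 111, 60 and 136 bp from the summit, and only that of S5, at 15 bp, was near it.

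TTGAC was close to most GIS3 summits. Within 30 bp of the summit, on either strand, it was present at S1, S3, S5, S6 and S7, which is 5 of 7, and absent at S2 and S4. The share among all nuclear summits was 23.9%, with 13.1% in left windows and 11.8% in right windows. Around GIS3 itself, 0 of 7 left windows and 1 of 7 right windows held it, the latter being that of S1, which lay inside the peak of S3. In the wider window of 150 bp the GIS3 summits did not stand above the windows beside them. TTGAC was present at 5 of 7 summits, 4 of 7 left windows and 6 of 7 right windows, and at 63.5% of all nuclear summits. Some of these left and right windows lay inside other GIS3 peaks and can hold the TTGAC of those peaks. The left window of S6, for example, lay inside the peak of S5. Its centre lay 0 bp from the summit at S5, 5 bp at S3, 12 bp at S1, 24 bp at S7 and 26 bp at S6, and S3 had a second match at 25 bp. The longer W-box, TTGACC or TTGACT, was present within 30 bp at 3 of 7 GIS3 summits (S3, S5 and S6), at 18.3% of all summits and at 7.14% of left windows. TTGAC and the distance of 30 bp were picked after the GIS3 sequences had been seen, so these counts are a description, and no binding by a WRKY factor was measured.

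The windows are printed so that the position of TTGAC can be followed from summit to summit (plus strand, TAIR10.1 from RefSeq). Each has the summit as its middle base and 30 bases on each side, except S4, for which 60 bases directly upstream of the gene are given. Capitals mark TTGAC or its complement GTCAA. The positions are chr1:25619599-25619659 for S1, chr1:25620192-25620252 for S2, chr1:25620680-25620740 for S3, chr1:25622594-25622653 for S4, chr1:25627899-25627959 for S6 and chr1:25630041-25630101 for S7, and the window of S5 is part of the sequence given above.
S1: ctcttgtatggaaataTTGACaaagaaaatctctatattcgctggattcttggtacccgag
S2: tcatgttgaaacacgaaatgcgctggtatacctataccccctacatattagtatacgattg
S3: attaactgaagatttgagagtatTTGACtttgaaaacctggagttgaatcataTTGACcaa
S4: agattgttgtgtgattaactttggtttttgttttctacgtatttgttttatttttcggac
S6: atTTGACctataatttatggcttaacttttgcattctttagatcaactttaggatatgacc
S7: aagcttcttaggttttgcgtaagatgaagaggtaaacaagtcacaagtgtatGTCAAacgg

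**Figure D4:**
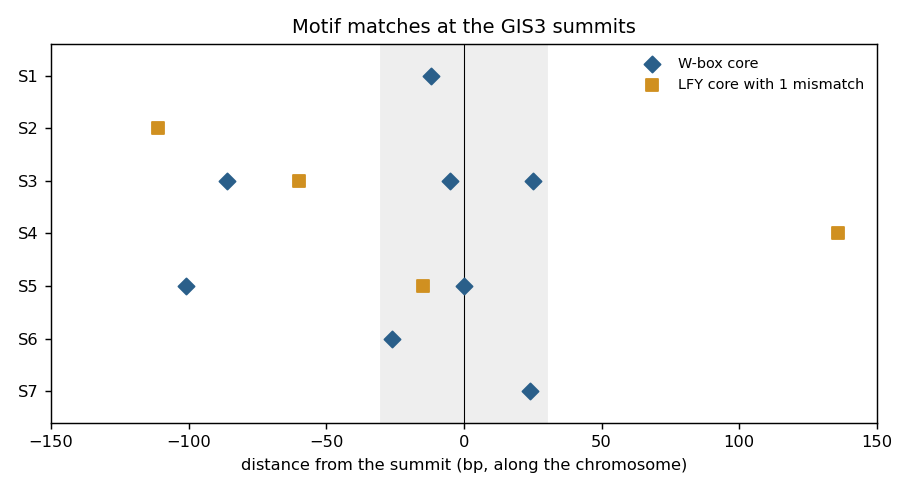
Matches to the W-box core (TTGAC, either strand) and to the LFY core with 1 mismatch within 150 bp of the 7 GIS3 summits, by distance from the summit in bp. Grey marks 30 bp on each side. W-box cores fall in the grey band at 5 summits, and a near LFY core does so only at S5. The band was picked after the sequences had been seen. The share of all nuclear summits with a near LFY core in this band was not counted, so the motifs are not compared.

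The G-box CACGTG and TGGNCCA were absent within 150 bp of all 7 GIS3 summits, beside 12.0% and 11.1% of all nuclear summits. The auxin response element TGTCTC, on either strand, was present at 1 of 7 (S4), beside 16.1%, and GAGAGA at 3 of 7 (S1, S3 and S4), beside 24.8%. GC content of the 301-base windows was between 29.9% and 31.6% at 6 summits and 36.2% at S4, the summit at the gene start, with a median of 32.9% over all nuclear summits.

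Genes that act with the GIS group in trichome formation were examined with the same window. Of 19 genes of the trichome network, 1 had a summit, against 6.13% of all protein-coding genes. This was CPC (AT2G46410), a single-repeat MYB that inhibits trichome formation, whose peak 651 bp upstream of its start reached a fold of 4.49 from 124 dex reads against 21 mock reads (ratio 4.65, 2.91 to 7.78). The activators GL1, MYB23, MYB5, GL3, EGL3, TT8, MYC1 and TTG1, their targets GL2 and TTG2, the inhibitors TRY, ETC1, ETC2, ETC3, TCL1 and TCL2, the cell cycle inhibitor SIM and SPL9, which represses trichomes on the stem, had none.

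Of 10 genes of gibberellin signalling, 2 had a summit, beside the 6.13% of all protein-coding genes. GID1B (AT3G63010), a gibberellin receptor, had a peak 2145 bp upstream with a fold of 12.9, ranking 15, on 309 dex reads over the floor, without an exact core within 150 bp. RGL3 (AT5G17490), a DELLA repressor, had a summit 42 bp inside the gene and an exact core 3 bp from that summit. Its fold was 3.21, based on 76 dex reads. The receptors GID1A and GID1C, the DELLA genes GAI, RGA, RGL1 and RGL2, SPY and SLY1 had none.

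Of 14 other C2H2 genes of the same broad class, 4 had a summit, beside the 6.13% of all protein-coding genes, and 1 did when only peaks with a −log10 q-value of 20 or more were counted. ZFP7 (AT1G24625) had the strongest of these peaks, 69 bp upstream of its start, with a fold of 8.55 on 222 dex reads over a background of 19.6 reads. The peaks of TAC1 (AT3G09290, 1184 bp upstream), ZFP4 (AT1G66140, 3338 bp upstream) and ZFP3 (AT5G25160, 697 bp upstream) had folds of 3.87, 3.50 and 3.13 on 92, 83 and 98 dex reads, and that of ZFP4 had an exact core 2 bp from the summit. ZFP1, ZFP2, ZFP10, ZFP11, LATE and the floral or organ regulators SUP, RBE, JAG, NUB and KNU had none. None of these 4 peaks reached the dex reads of S4, S5 or S6 at GIS3. The depth-scaled ratio of the ZFP7 peak, 8.94 (7.80 to 10.2), nevertheless lay inside the interval of S4, 9.49 (6.14 to 15.4). The ZFP7 peak and S4 were thus not told apart by ratio. The ratio intervals of TAC1 (3.25 to 4.95), ZFP4 (2.90 to 4.51) and ZFP3 (2.04 to 5.26) lay below that of S4. The summits of CPC, RGL3, ZFP7 and TAC1 also lay in or within 5 kb upstream of other protein-coding genes.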

How the data were processed

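A single peak list of pooled dex over pooled mock ChIP libraries was analysed. Per the submitters' processing notes, reads were trimmed (Trimmomatic 0.36), mapped to TAIR10 (Bowtie2 2.3.1) and peaks called by MACS2 2.1.1.20160309 and, per the study's methods, reads were extended to 138 bp. The methods give other versions of Trimmomatic and MACS2 than the notes. The authors deposited per peak a fold enrichment (a ratio), the p-value and the q-value as −log10 (q at least 10 on that scale) and a score, which is 10 times the −log10 q-value. The deposited list gives no reads. Reads were solved from the deposited fold and p-value under the MACS2 Poisson model for all 1181 peaks, with a single solution for 1180, and corresponded to 16.7 M dex and 13.2 M mock reads. The solver was tested on simulated data. Depth-scaled intervals are exact binomial where mock reads were counted at the summit, and otherwise exact Poisson on dex reads with the background taken as fixed.

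Genes and sequence came from RefSeq TAIR10.1, whose coordinates no peak exceeded. Python 3.11.15 and scipy 1.17.1 were used. Members, gene lists and motifs were chosen with earlier results of these data known. Named were all members, the neighbouring genes, every listed gene with a summit, AP1, and the highest peaks for rank. No test was made, since the rule used the peaks.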

Additional observations from a re-analysis of the deposited data

How the results depend on the processing

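Of 35 alternatives, 32 were planned and 3, all on the window for TTGAC, were added after seeing the data. A count was taken to hold within 1.5 times its main value, and the share of genes and the ratio of S5 within the 95% interval of theirs. By this rule 23 alternatives held and 12 moved. The number of GIS-type genes with a summit was 1 under all 7 of its alternatives. None of the 7 could have changed it. S4 lay 8 bp from the start of GIS3 with a −log10 q-value of 121, and no other member had a summit within 10 kb. Nothing is read from this count, although these 7 are among the 23 that held. The number of their summits, 2, was 1 with 3 kb or 1 kb upstream, 4 with 10 kb upstream and 5 with 5 kb on both sides. The share of protein-coding genes with a summit, 6.13%, was 4.32% with 3 kb upstream, 5.36% over all genes and pseudogenes, 3.92% for peaks with −log10 q of 20 or more and 1.45% for 50 or more. With up to 1 mismatch, 4 GIS3 summits had a LFY core in place of 0. The depth-scaled ratio of S5 was 29.5 with the genome-wide floor as background. Genes of the trichome network and of gibberellin signalling, counted together, had 3 with a summit, 3 with 3 kb upstream and 2 with −log10 q of 20 or more. Other C2H2 genes with a summit, 4, numbered 1 with peaks of −log10 q of 20 or more. TTGAC was present at 3 GIS3 summits within 15 bp. The cause was not tested beyond the wider or narrower windows and thresholds themselves. No paired analysis was possible because the replicates were pooled before peaks were called, and no replicate could be left out for the same reason. Peaks under the q-value threshold, and reads at the 5 members without a peak, are not known from the list.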

Other observations

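The peak numbers of S1 to S7 ran between 425 and 435, where 4 of 11 possible numbers had no peak in the list. Their values and positions were not analysed here.

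The share of summits with TTGAC within 30 bp hardly varied with peak height over the whole list. It was 22.7%, 25.2%, 23.4% and 24.1% from the lowest to the highest quartile of fold, and 12.6% in left windows of the highest quartile. Of the 5 peaks with the highest fold, 1, which is S5 at GIS3, had it. An exact LFY core within 150 bp was present at none of these 5, and a core with up to 1 mismatch at 4 of them.

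Among protein-coding genes with at least 1 exact LFY core in the gene or 5 kb upstream, 6.31% had a summit there, and among those with none, such as GIS3, 5.74% had one.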
